A study of Mus musculus with 8 samples.

Results

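The Notch genes described here are 10 members of 1 signalling pathway: the receptors Notch1, Notch2 and Notch3, the ligands Dll1 and Jag1, the glycosyltransferase Lfng, and the transcriptional effectors Hes1, Hes5, Hey1 and Heyl. They were taken by name from the 19356 genes that the arrays measured through a probe set with a single gene symbol, and each of the 10 had 1 such probe set. RNA came from the caudal part of the urogenital ridge, the strip of intermediate mesoderm from which the kidney arises, of mouse embryos at stage E10.75. The 4 wildtype and the 4 Sox11 knock-out (Sox11-/-) replicates came from mice of a mixed genetic background that had no treatment. The sources used here do not say how the Sox11 allele was made, nor if each replicate holds RNA of a single embryo.

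Notch receptors sit in the membrane of one cell and are bound by Delta or Jagged ligands on its neighbour. Binding leads to cleavage of the receptor, whose inner part moves to the nucleus, joins the DNA-binding protein RBPJ and switches on genes of the HES and HEY families, which encode repressors. In the developing kidney the pathway is known for patterning the early nephron, after the stage studied here. In the embryo at large it is known for the somite clock, for holding back neurons from forming and for arteries and the mural cells around them.

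Sox11, the targeted gene, had a log2 signal of 11.79 ± 0.059 in wildtype and 9.10 ± 0.13 in knock-out ridges (SD, n = 4 each), with the genotypes apart on every array. Markers of the labelled tissue were present: 8 of 9 nephric duct genes and 9 of 9 metanephric mesenchyme genes had a mean signal above the median of all genes. Pairs of arrays correlated across all genes at r = 0.987 to 0.995, a value over genes that do not vary independently. Y-linked signal marked wildtype replicate 1 and knock-out replicates 3 and 4, so the sexes were spread unevenly. The small number of arrays limits the precision, and the labels call the replicates biological.

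The comparison asked whether loss of Sox11 changed the level of Notch pathway transcripts in the ridge. No member passed the test: 0 of 10 had an adjusted p under 0.05 (limma, Benjamini-Hochberg over all genes), where 1.44% of all genes did (0.362% higher and 1.08% lower). At an unadjusted p under 0.05 limma gave 3 of 10 members, all lower in the knock-out (Lfng, Notch3 and Hes1), against 16.7% of all genes in either direction and 9.38% lower. The genotypes did not overlap in 2 of 10 members, Lfng and Notch3, both lower in the knock-out, against 10.5% of all genes (4.04% higher and 6.47% lower). The differences, knock-out minus wildtype on the log2 scale, ran from -0.27 to 0.25 with a median of -0.049, beside a median of -0.00050 over all genes. The median absolute difference was 0.18 in the members and 0.10 over all genes. For 8 of the 10 the 95% interval of the difference lay within a 1.5-fold change either way, and the intervals of Hey1 and Heyl reached beyond it. The share of all genes with such an interval was not computed. Dll1 is among the 8, and at its low signal the interval bounds the change in signal only.

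**Figure D1:**
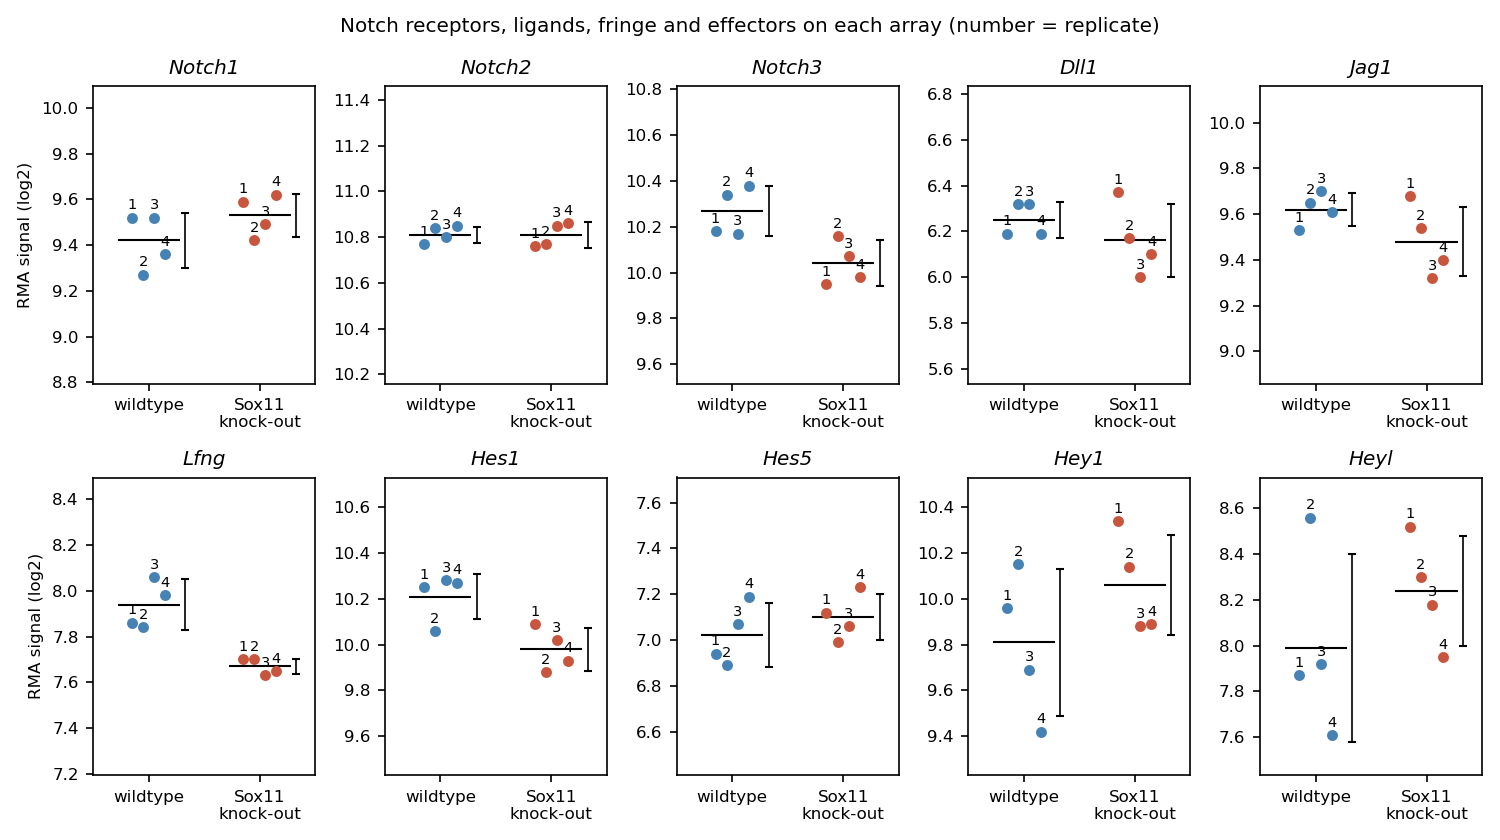
Log2 RMA signal of each member (vertical axis, the same span of 1.3 log2 units in every panel) for the 4 wildtype (blue) and 4 Sox11 knock-out (red) arrays; each numbered point is 1 replicate, the line is the mean and the bar beside it the SD. Lfng and Notch3 are the 2 members in which the knock-out points all lie below the wildtype points, and Hey1 and Heyl are the most widely scattered.

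Among the receptors, Notch1 and Notch2 are the pair made widely in embryonic tissues, and Notch3 is best known from the mural cells of blood vessels. Notch3 read 10.18, 10.34, 10.17 and 10.38 in wildtype replicates 1 to 4 and 9.95, 10.16, 10.07 and 9.98 in knock-out replicates 1 to 4. The highest knock-out array, replicate 2, lay just below the lowest wildtype array, replicate 3. The means were 10.27 ± 0.11 and 10.04 ± 0.10 (SD, n = 4 each), a difference of -0.23 (SE 0.078, 95% interval -0.40 to -0.057), with an unadjusted p of 0.0139 and an adjusted p of 0.184 (limma).

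Notch2 was the steadiest member. Its 8 arrays spanned 0.11 on the log2 scale, and its SD within a genotype, 0.046, was lower than that of all but 2.03% of genes. Its means were 10.81 ± 0.034 and 10.81 ± 0.056 (SD, n = 4 each), and the 95% interval of the difference ran from -0.14 to 0.13, so that a change of more than about 1.09-fold upwards lay outside it. Notch1 lay between 9.27 and 9.52 in wildtype and between 9.42 and 9.62 in knock-out ridges. Its difference of 0.11 (95% interval -0.069 to 0.29) had a limma adjusted p of 0.520, and the genotypes overlapped. Without wildtype replicate 2 it was 0.059 (0.776).

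The ligands did not pass either. Jag1, a Jagged ligand used in vessels and in the early nephron, read 9.53, 9.65, 9.70 and 9.61 in wildtype and 9.68, 9.54, 9.32 and 9.40 in knock-out replicates 1 to 4. Knock-out replicates 3 and 4 were the lowest of the 8 arrays and wildtype replicate 1 came next, while knock-out replicate 1 was the second highest. The low arrays were those with Y-linked signal. The Jag1 difference was -0.14 (SE 0.085, limma adjusted p = 0.442). It was -0.092 with Y-linked signal as a term of the model (0.555) and -0.083 without knock-out replicate 3 (0.677). Dll1, a Delta ligand of the somite clock and of neural progenitors, had signals of only 6.00 to 6.37, with a mean below the 25th percentile of all genes, where array signal understates differences. Its knock-out arrays spread over that whole range and enclosed the wildtype arrays (6.19 to 6.32), with a difference of -0.095 (95% interval -0.29 to 0.10, limma adjusted p = 0.610). It was -0.17 without knock-out replicate 1 and -0.040 without knock-out replicate 3 (0.412 and 0.857).

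Lfng adds a sugar to the outer part of Notch receptors and so shifts their response between Delta and Jagged ligands. It had the lowest p-value of the members. Lfng read 7.86, 7.84, 8.06 and 7.98 in wildtype replicates 1 to 4 and 7.70, 7.70, 7.63 and 7.65 in knock-out replicates 1 to 4. The knock-out arrays lay close together below all wildtype arrays. The means were 7.94 ± 0.11 and 7.67 ± 0.033 (SD, n = 4 each), a difference of -0.27 (SE 0.070, 95% interval -0.42 to -0.11), which is 1.20-fold lower, with an unadjusted p of 0.00317 and an adjusted p of 0.0968 (limma). The exact two-sided permutation test gave 0.0286 for Lfng and for Notch3, the smallest p that 4 against 4 arrays allow. Any gene whose genotypes do not overlap gets this value, so it restates that separation and adds nothing to it. The same permutation test gave 0.0571 for Hes1 and between 0.200 and 0.886 for the other members.

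Promoters of 7 of the 10 members were found in the RefSeq table (GRCm38.p6), 8 windows in all because Dll1 has 2 start sites. The members without an entry were Hes1, Hey1 and Heyl. The windows, of 250 bases before to 50 after the start, were searched on both strands for the RBPJ core TGGGAA, because RBPJ carries the Notch signal to DNA. It stood in 2 of the 8 windows, those of 2 of the 7 members, Lfng and Hes5, with 2 matches in each. Of all 32851 promoters of that length 25.6% held it and 3.79% held it more than once. The 250 bases before the start of both genes are shown because Lfng had the lowest p-value and Hes5 is an effector of the pathway; capitals mark TGGGAA or its reverse complement TTCCCA, and in Lfng also the E-box CACGTG, a sequence that HEY and HES proteins can bind, which overlaps the second core. Lfng is read from the + strand at chr5:140607091-140607340 and Hes5 from the + strand at chr4:154960673-154960922, 5′ to 3′.
Lfng: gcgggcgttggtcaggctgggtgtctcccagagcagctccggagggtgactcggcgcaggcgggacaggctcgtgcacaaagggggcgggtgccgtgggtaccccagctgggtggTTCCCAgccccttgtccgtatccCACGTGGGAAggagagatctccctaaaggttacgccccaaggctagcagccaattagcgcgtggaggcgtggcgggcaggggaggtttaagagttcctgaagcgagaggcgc
Hes5: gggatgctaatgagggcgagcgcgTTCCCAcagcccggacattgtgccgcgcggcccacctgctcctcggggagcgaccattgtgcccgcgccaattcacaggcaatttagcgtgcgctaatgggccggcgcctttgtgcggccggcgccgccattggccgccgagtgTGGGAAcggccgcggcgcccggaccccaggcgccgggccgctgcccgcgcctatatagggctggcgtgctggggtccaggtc

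The cores began 135 and 108 bases before the start of Lfng and 226 and 82 bases before that of Hes5. CACGTG occurred in Lfng alone among the members with a window, and in 7.15% of all promoters. The HES site CACNAG occurred in 5 of the 8 windows, from 5 of the 7 members (Notch1, Notch2, Notch3, Dll1 and Lfng), and in 42.5% of all promoters. The SOX core ACAAT occurred in 3 of the 8 windows, from 3 of the 7 members (Dll1, Jag1 and Hes5), and in 31% of all promoters. These matches describe letters in a window. Nothing in these arrays measured binding there, and the part of these motifs in the differences between genotypes was not tested.

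Of the effectors, Hes1 is a repressor used in many tissues and Hes5 is best known from neural progenitors. Hes1 read 10.25, 10.06, 10.28 and 10.27 in wildtype and 10.09, 9.88, 10.02 and 9.93 in knock-out replicates 1 to 4. Wildtype replicate 2 stood apart from the other wildtype arrays and lay among the knock-out arrays, just under knock-out replicate 1; otherwise the genotypes were apart. The means were 10.21 ± 0.10 and 9.98 ± 0.094 (SD, n = 4 each), a difference of -0.23 (SE 0.076, 95% interval -0.40 to -0.062), with an unadjusted p of 0.0121 and an adjusted p of 0.170 (limma). Hes5 lay between 6.89 and 7.19 in wildtype and between 6.99 and 7.23 in knock-out ridges, with a difference of 0.074 (95% interval -0.11 to 0.26, limma adjusted p = 0.688) that was 0.046, 0.031 and 0.13 without wildtype replicate 1, 2 or 4 and 0.032 without knock-out replicate 4.

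Hey1 and Heyl, effectors that arteries and mural cells use, had positive differences and the widest spread of the 10. Hey1 read 9.96, 10.15, 9.69 and 9.42 in wildtype and 10.34, 10.14, 9.88 and 9.89 in knock-out replicates 1 to 4. Heyl read 7.87, 8.56, 7.92 and 7.61 in wildtype and 8.52, 8.30, 8.18 and 7.95 in knock-out replicates 1 to 4. In both genes wildtype replicate 2 and knock-out replicate 1 were the highest 2 arrays and wildtype replicate 4 was the lowest, so that the genotypes overlapped. The differences were 0.25 for Hey1 (SE 0.16, 95% interval -0.094 to 0.60, limma adjusted p = 0.441) and 0.25 for Heyl (SE 0.19, 95% interval -0.16 to 0.66, limma adjusted p = 0.520). The SD within a genotype was 0.27 in Hey1 and 0.33 in Heyl, above that of 94.8% and 97.4% of genes. Without wildtype replicate 2 the difference in Heyl was 0.44 (limma adjusted p = 0.200) and without wildtype replicate 4 it was 0.12 (0.745). In Hey1 it was 0.37 (0.326) without wildtype replicate 2, 0.12 (0.659) without wildtype replicate 4 and 0.16 (0.707) without knock-out replicate 1, where Heyl was also at 0.16 (0.772).

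Vascular markers varied over the same arrays. The mean of 12 endothelial genes was 9.49 in wildtype replicate 2 and 9.58 in knock-out replicate 1, its highest 2 values, and 9.17 in wildtype replicate 4, its lowest. Over the 8 arrays it correlated with Heyl at r = 0.93 (rho = 0.90, exact permutation p = 7.19e-04 and 0.00456) and with Hey1 at r = 0.87 (rho = 0.76, exact permutation p = 0.00605 and 0.0368). Leaving out the 2 arrays farthest from the endothelial median, wildtype replicate 2 and knock-out replicate 1, gave r = 0.88 for Heyl and 0.78 for Hey1. The mean of 7 mural cell genes correlated with Heyl at r = 0.79 (rho = 0.81, exact permutation p = 0.0211 and 0.0218; r = 0.83 without its 2 farthest arrays, wildtype replicate 3 and knock-out replicate 1). With Hey1 it gave r = 0.75 (rho = 0.76, exact permutation p = 0.0315 and 0.0368; r = 0.59 without the same pair). Relations of this size were not limited to vascular lists. With the mean of metanephric mesenchyme genes Hey1 gave r = -0.92 and Heyl -0.85, and Heyl gave 0.79 with neural crest genes. All these belong to 90 relations, the 10 members against 9 marker lists. After Benjamini-Hochberg adjustment of the exact two-sided permutation p, 0 of the 90 passed. At an unadjusted exact permutation p of r under 0.05 there were 13 of the 90. The adjusted p from r was 0.0558 for Heyl and 0.136 for Hey1 with endothelial genes, and 0.236 for both with mural genes, and from rho it was 0.205, 0.368, 0.368 and 0.368 in the same order. In RNA of a whole ridge, fewer cells of a type and less RNA per cell cannot be told apart.

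**Figure D2:**
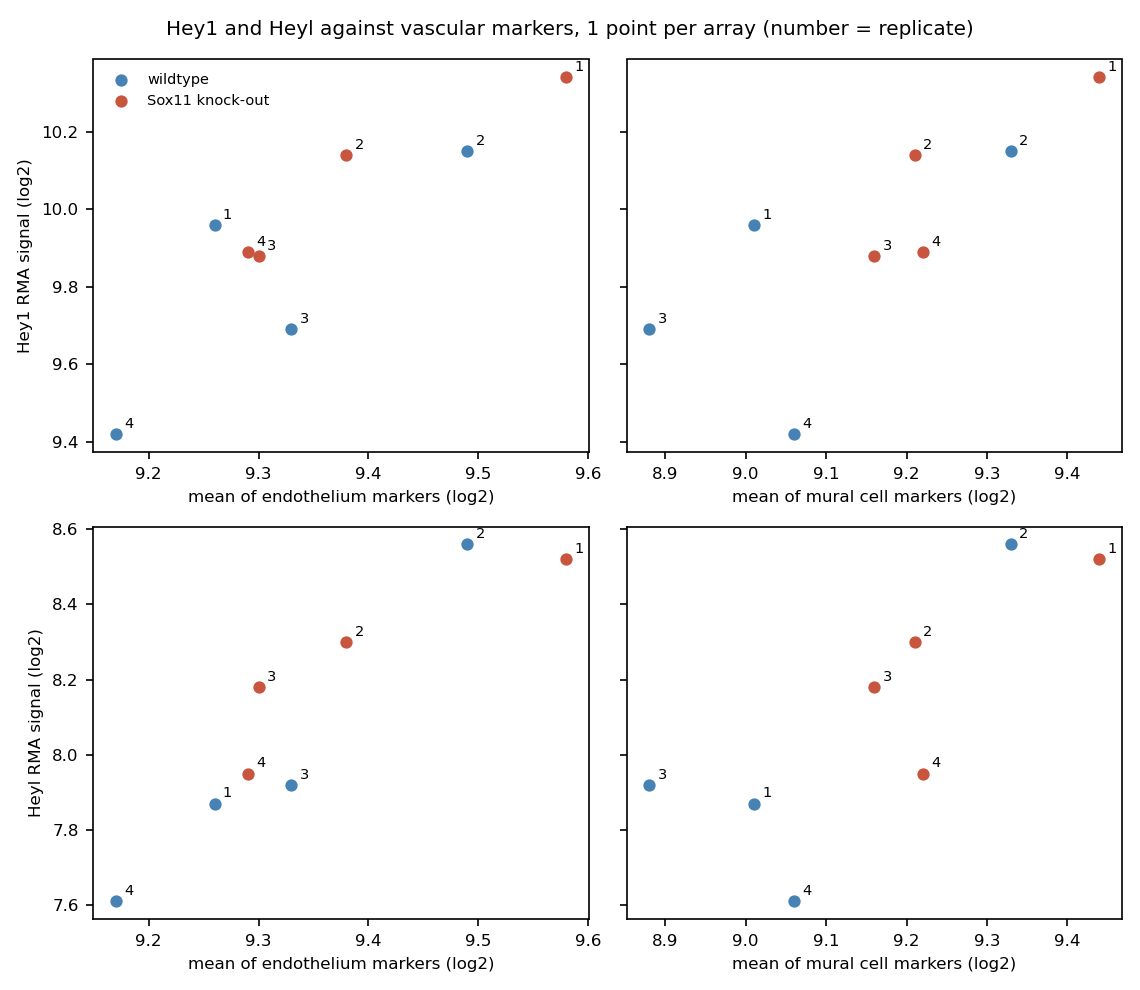
Log2 RMA signal of Hey1 (top) and Heyl (bottom) against the mean log2 signal of 12 endothelial (left) or 7 mural cell (right) marker genes; each point is 1 array, blue for wildtype and red for Sox11 knock-out, numbered by replicate. Wildtype replicate 2 and knock-out replicate 1 lie at the upper right against endothelial genes and wildtype replicate 4 at the lower left.

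The endothelial list itself had 0 of 12 genes past limma's threshold and 0 at an unadjusted p under 0.05, against 16.7% of all genes. Its median difference was 0.069, and its array means ran from 9.17 to 9.49 in wildtype and from 9.29 to 9.58 in knock-out ridges. Emcn and Cdh5, surface proteins of endothelial cells, were at 0.18 and 0.15 (limma adjusted p = 0.493 and 0.524). They were at 0.068 and 0.042 without wildtype replicate 4 (0.755 and 0.818) and at 0.11 and 0.095 without knock-out replicate 1 (0.754 and 0.771). The mural list had 0 of 7 past limma's threshold and 1 higher at an unadjusted p under 0.05, against 7.29% of all genes higher. This was Cspg4, a proteoglycan of pericytes, at 0.43 (limma adjusted p = 0.0745, 0.0273 without wildtype replicate 2 and 0.0465 among genes above the median level). Array means of the mural list ran from 8.88 to 9.33 in wildtype and from 9.16 to 9.44 in knock-out ridges. Rgs5, another pericyte gene, was at 0.31 (limma adjusted p = 0.341) and at 0.13 without wildtype replicate 4 (0.421), while Notch3 was at -0.23. Over the 8 arrays Notch3 gave r = -0.34 with the endothelial and with the mural mean (exact permutation p = 0.403 and 0.419). The part of vascular cells in the values of Hey1, Heyl and Notch3 was not tested.

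Other cells that use Notch signalling were read through fixed marker lists. Beside the counts here and in the next paragraph, limma called 0.362% of all genes higher and 1.08% lower. Of 10 genes of presomitic mesoderm and somite, 2 fell (the homeobox genes Meox2 at -0.50 and Uncx at -0.88, limma adjusted p = 0.0117 and 0.0148) and 8 did not pass. Uncx missed the threshold without knock-out replicate 1 (limma adjusted p = 0.0505), and without moderation it missed at 0.109 and Meox2 at 0.0646. Meox1, a further homeobox gene of somites, had the widest difference of the list at -0.94 and did not pass (limma adjusted p = 0.0517). It passed without wildtype replicate 4 or knock-out replicate 3 (0.0486 and 0.0162), with Y-linked signal as a term (0.0355), with array weights (0.0469), after median centring (0.0494) and among genes above the 25th percentile or the median of level (0.0451 and 0.0364). The presomitic genes had low signals, and so did the somite genes Pax1 and Pax3, with wildtype means of 6.49 and 6.05. Pax1 and Pax3 were at 0.12 and 0.16 (limma adjusted p = 0.517 and 0.332). Msgn1 read 6.04 to 6.19 in wildtype and 6.23 to 6.47 in knock-out ridges, higher on every knock-out array, with a difference of 0.19 (limma adjusted p = 0.222). Tbx6, which activates Dll1, lay between 6.20 and 6.45 on all arrays, with a difference of 0.092 (0.550). In the list as a whole 6 of 10 genes had a difference above 0 and the median was 0.054, while its array means were lower on every knock-out array (7.11 to 7.27, against 7.33 to 7.39 in wildtype). Apart from Meox1, Meox2 and Uncx, the differences of the list ran only from -0.037 (Tcf15) to 0.19 (Msgn1). The part of somite cells in the values of Lfng was not tested. Of 13 neural tube and neuron genes 12 did not pass. Dcx, which binds microtubules in migrating neurons, was lower and passed, at -0.93 (limma adjusted p = 0.0384). The neuron genes Stmn2, Elavl4 and Tubb3 were at -0.64, -0.30 and -0.063 (limma adjusted p = 0.213, 0.173 and 0.845). In that list 6 differences were above 0 and 7 below, with a median of -0.046. Dcx kept its call without knock-out replicate 3 and lost it without any other single array (limma adjusted p up to 0.113), with Y-linked signal as a term (0.0514) and without moderation (0.155). Sox1, Sox2, Pax6 and Neurog2, which mark neural progenitors, lay between 6.03 and 6.85 on all arrays. Olig2, a further progenitor gene of that list, read higher, from 6.80 to 7.46.

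In the tissue of the label, Ret, the GDNF receptor of the nephric duct, rose by 0.41 (limma adjusted p = 0.0220) and 8 of 9 duct genes did not pass, among them Lhx1 at 0.42 (0.0577, and 0.0453 among genes above the 25th percentile of level). Ret missed the threshold without wildtype replicate 2 or 3 or knock-out replicate 1, 2 or 3 (limma adjusted p up to 0.0764) and without moderation (0.0692). Six2, which keeps nephron progenitors from maturing, was lower and passed, at -0.48 (limma adjusted p = 0.0437) and 8 of 9 mesenchyme genes did not pass, among them Eya1 at -0.28 (0.0609). Eya1 passed with trended and robust moderation (limma adjusted p = 0.0168), with array weights (0.0491) and among genes above the median or the 25th percentile of level (0.0283 and 0.0437). Six2 kept its call without wildtype replicate 1 and lost it without any other single array (limma adjusted p up to 0.122), and also after a further quantile normalization (0.0610), with Y-linked signal as a term (0.0809) and without moderation (0.134). In the remaining lists Erbb3, a receptor of neural crest and glia, rose by 0.36 (limma adjusted p = 0.0417), 3 of 4 neural crest genes did not pass, with Foxd3 at -0.48 (0.229). Erbb3 lost its call without any single array (limma adjusted p up to 0.113), without moderation (0.0874), with the replicate block (0.0633) and with Y-linked signal as a term (0.0669). Limma called 0 of 9 erythroid genes and 0 of 7 genes of coelomic epithelium and gonad. At an unadjusted limma p under 0.05 there were 5 of 9 erythroid genes, all lower, against 9.38% of all genes lower, with Rhd and Rhag (-0.51 and -0.45, limma adjusted p = 0.0827 and 0.126) the clearest. Of the 7 coelomic genes 1 had such a p, Msln at 0.20 (limma adjusted p = 0.258), against 7.29% of all genes higher. Krt19 was at 0.22 (0.508) and at 0.071 without knock-out replicate 2 (0.807). In that list 4 differences were above 0 and 3 below, between -0.25 and 0.22 with a median of 0.031.

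The rest of the pathway was followed through 45 further genes, of which 43 were analysed here. Limma called 0 of the 43 over all genes, and at an unadjusted p under 0.05 it gave 1 higher (Neurl1a) and 1 lower (Dtx1), against 7.29% and 9.38% of all genes. In none of the 43 were the genotypes apart on all arrays, against 10.5% of all genes. The median difference was -0.016 and the median absolute difference 0.078, beside 0.10 over all genes. For 40 of the 43 the 95% interval lay within a 1.5-fold change either way, and it reached past it in Dtx1, Hey2 and Maml2. Here too the share over all genes was not computed.

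**Figure D3:**
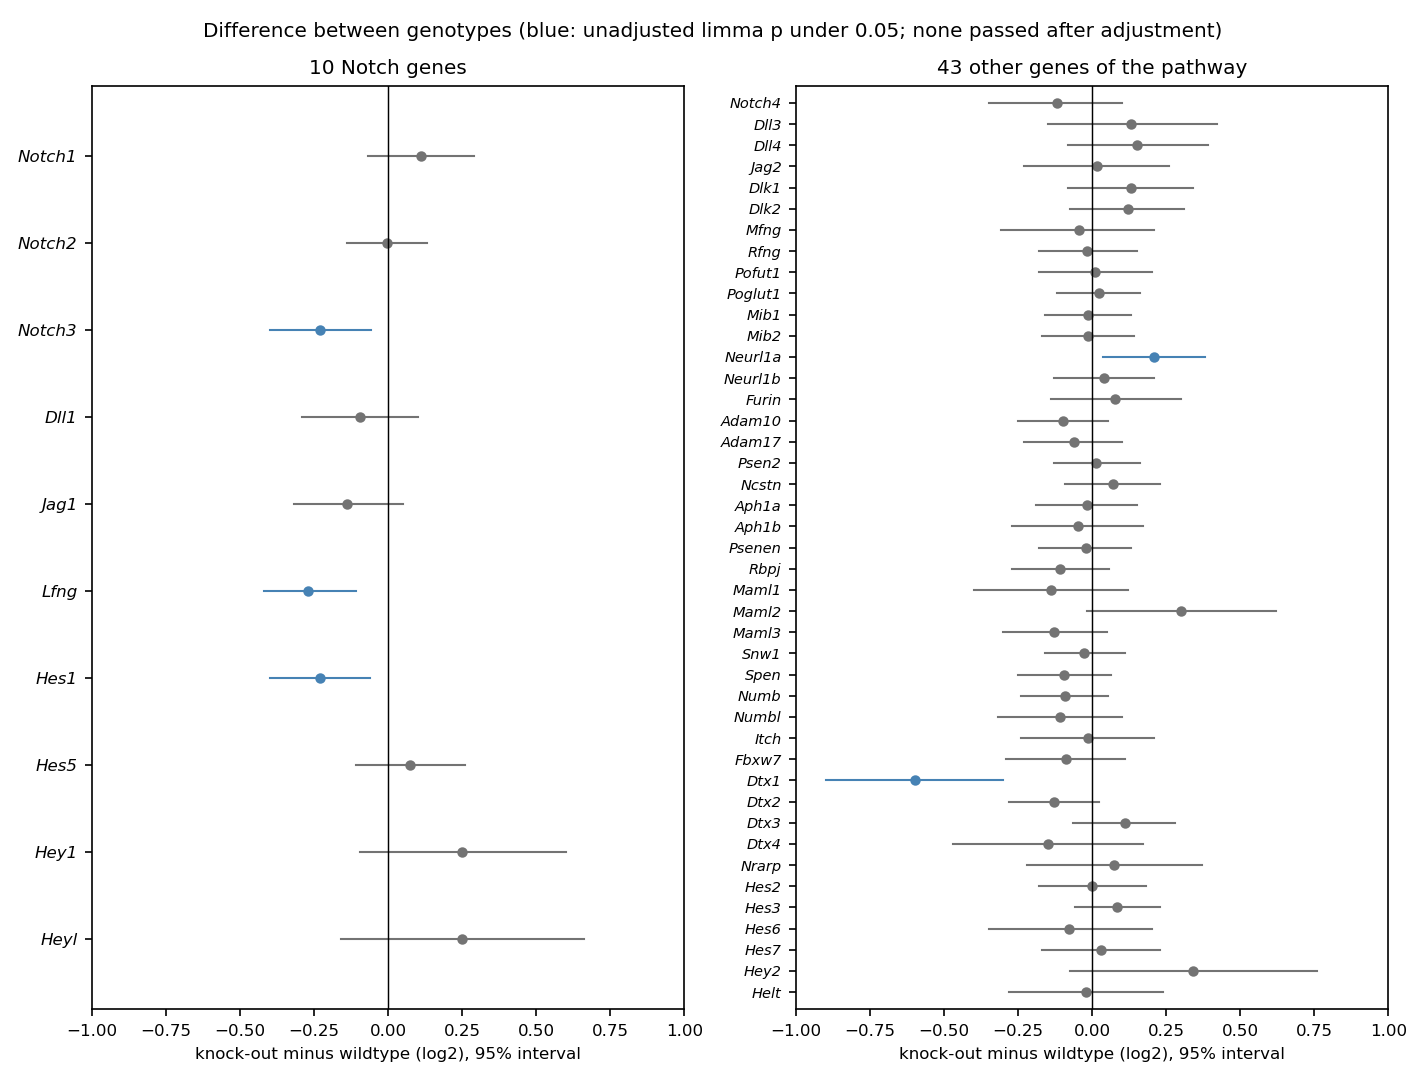
Knock-out minus wildtype difference of each gene on the log2 scale (horizontal axis) with its 95% interval from limma, for the 10 members (left) and the 43 other pathway genes in order of role (right); blue marks an unadjusted p under 0.05. The intervals of Hey1, Heyl, Dtx1, Hey2 and Maml2 reach beyond 0.5 from 0 and those of the other genes do not, and Dtx1 at -0.60 stands farthest.

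Dtx1, a Deltex ubiquitin ligase that binds the inner part of Notch receptors, had the largest difference of the members and the 43 other pathway genes. It read 8.07, 7.46, 8.02 and 7.88 in wildtype replicates 1 to 4 and 7.11, 7.14, 7.48 and 7.28 in knock-out replicates 1 to 4. Wildtype replicate 2 was again low among its group and lay just under knock-out replicate 3. The difference was -0.60 (SE 0.13, 95% interval -0.90 to -0.30), with an unadjusted p of 0.00106 and an adjusted p of 0.0609 (limma). Without wildtype replicate 2 it was -0.74 with a limma adjusted p of 0.0163, and it also passed with Y-linked signal as a term of the model (0.0387), with trended and robust moderation (0.0450) and among genes above the median level (0.0407). Its relatives Dtx2, Dtx3 and Dtx4 were at -0.13, 0.11 and -0.15 (limma adjusted p = 0.372, 0.504 and 0.643; Dtx4 ran from -0.24 to -0.033 when 1 array was left out), and Nrarp, a feedback inhibitor that Notch induces, was at 0.074 (0.808).

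Hey2, the third HEY gene, resembled Hey1 and Heyl in size, with 8.85, 9.49, 9.08 and 8.72 in wildtype and 9.68, 9.64, 8.98 and 9.21 in knock-out replicates 1 to 4. Wildtype replicate 4 was again its lowest array, and the difference was 0.34 (SE 0.19, limma adjusted p = 0.391). The Hey2 difference was 0.45 with Y-linked signal as a term (limma adjusted p = 0.225) and 0.50 without wildtype replicate 2 (0.259). Without wildtype replicate 4 or knock-out replicate 1 it was 0.24 (0.538 and 0.635). Hes6 was at -0.078 (from -0.21 without wildtype replicate 4 to near 0 without wildtype replicate 3) and Hes7, a gene of the somite clock, at 0.030 with signals of 6.06 to 6.42. Among further ligands and receptors, the 5 genes listed as ligands (Dll3, Dll4, Jag2, Dlk1 and Dlk2) had differences between 0.017 and 0.15. Dll3 had signals of only 5.96 to 6.56. Dll4, a ligand of arteries, was at 0.15 (limma adjusted p = 0.490) and at 0.049 without wildtype replicate 4 (0.764). Notch4, a receptor of endothelium, was at -0.12 (limma adjusted p = 0.555) and at -0.023 without wildtype replicate 2 (0.908).

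No gene of the machinery between receptor and target passed. Rbpj was at -0.11 (SE 0.073, limma adjusted p = 0.492), and the coactivator genes Maml1, Maml2 and Maml3 were at -0.14, 0.30 and -0.13 (0.569, 0.323 and 0.445). Maml1 was at -0.27 without wildtype replicate 4 (limma unadjusted p = 0.00868, adjusted p = 0.142) and at -0.079 without wildtype replicate 2, and Maml3 ran from -0.20 to -0.080 when 1 array was left out. Maml2 was at 0.14 without wildtype replicate 4, and Rbpj ran from -0.14 to -0.064 when 1 array was left out. The 8 measured genes of receptor cleavage lay between -0.10 and 0.077, with Adam10, the protease that makes the first ligand-induced cut, at the lower end (limma adjusted p = 0.488). The 4 genes of receptor glycosylation besides Lfng lay between -0.045 and 0.023, with Mfng, a fringe gene like Lfng, at -0.045 (0.874). Neurl1a, which helps ligands to be taken up by the cell that presents them, was at 0.21 (SE 0.078, limma unadjusted p = 0.0222, adjusted p = 0.218).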

How the data were processed

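Total RNA of 8 caudal urogenital ridge samples was depleted of ribosomal RNA, amplified and biotin-labelled with Affymetrix kits, per the labels' protocols. The authors deposited 1 log2 signal per probe set and array, made with RMA and Partek per the submitters' processing notes; the sources used here give no version, setting, filter or genome build. The log2 scale was inferred from the range of the deposited values (4.3 to 14.62, array medians 7.29 to 7.31). RMA equalises the arrays, which hides a change common to all transcripts.

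Of 27478 probe sets, 21103 had 1 gene symbol in the platform's annotation, 1531 several and 4844 none; a gene kept its brightest probe set over the 8 arrays (19356 genes; 0 symbols changed through RefSeq). The genotype contrast was fitted in R 4.3.3 with limma 3.58.1 (lmFit, eBayes, two-sided, Benjamini-Hochberg over all genes, threshold 0.05), after the code was tested on simulated data. No filter on level was applied. Signals of different probe sets were compared as levels only roughly, by calling a signal low or placing a gene against the median or a percentile of all genes. Correlations used exact permutation with SciPy 1.17.1, and figures matplotlib 3.10.9.

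The members, lists and tests were chosen with earlier results of these data known. Named genes were the 10 members and 2 per marker list. In the wider list they were those with an unadjusted p under 0.05 and the lowest p of each role. Other genes of the lists that are set beside them were added for their role after values were seen. Among the marker lists these were Tbx6, Msgn1, Meox1, Pax1, Pax3, Tcf15, Sox1, Sox2, Pax6, Neurog2, Olig2, Stmn2 and Tubb3. Among the other pathway genes these were Dll3, Jag2, Dlk1, Dlk2, Dtx2, Dtx3, Dtx4, Nrarp, Hes6, Hes7, Rbpj, Maml1 and Maml3. The alternatives were 2 further scalings, 2 filters on level, 2 rules for probe sets, 2 kinds of moderation, array weights, a replicate block, a Y-linked covariate and leaving out each array in turn. Protein sequences were not analysed here.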

Additional observations from a re-analysis of the deposited data

Results flagged for a closer look

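In Hes1, wildtype replicate 2 at 10.06 stood apart from the other wildtype arrays, which lay between 10.25 and 10.28. Without it the Hes1 difference was -0.28 with a limma adjusted p of 0.147. In Maml2, a coactivator of the Notch complex, wildtype replicate 4 at 9.14 stood apart from the others at 9.75 to 9.83, and without it the Maml2 difference was 0.14 in place of 0.30 (limma adjusted p = 0.404). Knock-out replicate 4 in Dtx2 was at 9.20, against 9.13 to 9.14 on the other knock-out arrays. Of the marker genes, wildtype replicate 3 was at 7.38 in Rhag, against 6.78 to 6.87, wildtype replicate 3 was at 6.04 in Msgn1, against 6.16 to 6.19, and knock-out replicate 3 was at 9.34 in Meox2, against 9.09 to 9.10. Without wildtype replicate 3 the Msgn1 difference was 0.16 (limma adjusted p = 0.373). These were 6 of 98 groups of 4 arrays examined (Dixon's criterion), and chance alone marks about 1 in 20.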

How the results depend on the processing

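Under 19 alternatives none of the 10 members passed limma's threshold (187 values, lowest adjusted p 0.0521, for Lfng among genes above the median level), and 9 of them kept their direction. Notch2, at -0.0043, turned to 0.014 after a further quantile normalization and 0.0077 with array weights, and ran from -0.022 to 0.014 when 1 array was left out. Mfng turned to 0.032 with a Y-linked covariate and ran from -0.14 to 0.034 when 1 array was left out. Hes7 turned to -0.023 after the further quantile normalization and ran from -0.036 to 0.082, and Nrarp from -0.0067 to 0.16, when 1 array was left out. The cause was not tested for these genes. The count of other pathway genes called lower was 0 and became 1, Dtx1, among genes above the median level (where fewer genes were tested), with trended and robust moderation and with that covariate, and ran from 0 to 1 when 1 array was left out. The filter at the 25th percentile tested 9 members and that at the median 8. The replicate numbers did not pair the arrays: 0 of 4 same-numbered pairs had a correlation of deviations over 0.1 (-0.17 to 0.090), and 2 of 8 arrays correlated best with their own number. With the replicate block 166 genes were called in place of 279, still 0 of the members, and Lfng stood at -0.27 (limma adjusted p = 0.176). Without moderation 55 genes were called, and between 107 and 243 when 1 array was left out. Promoter counts over only the bases before the start were 4 in place of 5 members for CACNAG and the same for the other motifs. Low signal limits what can be seen of Dll1, Dll3 and Hes7.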

Other observations

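Of the 90 relations of members with marker lists across the 8 arrays, 13 had an unadjusted exact permutation p of r under 0.05 and 0 passed after adjustment; the 9 besides the vascular ones of Hey1 and Heyl are given here, with exact two-sided permutation p for r and rho. Hey1 was lower where the mean of 9 metanephric mesenchyme genes was higher, at r = -0.92 (rho = -0.90, exact permutation p = 0.00124 and 0.00456, adjusted 0.0558 and 0.205), and r was -0.75 without wildtype replicates 3 and 4. Heyl did likewise, at r = -0.85 (rho = -0.88, exact permutation p = 0.00918 and 0.00724, adjusted 0.165 and 0.217; r = -0.72 without the same pair). Lfng and Hes1 ran the other way with that list, at r = 0.82 (rho = 0.57, exact permutation p = 0.015 and 0.151, adjusted 0.225 and 0.591) and r = 0.80 (rho = 0.67, exact permutation p = 0.0209 and 0.0831, adjusted 0.236 and 0.575); without wildtype replicates 3 and 4 these were 0.45 and 0.57.

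With the mean of 9 nephric duct genes, Notch3 gave r = -0.89 (rho = -0.86, exact permutation p = 0.00503 and 0.0107, adjusted 0.136 and 0.241) and Notch1 r = 0.77 (rho = 0.62, exact permutation p = 0.0263 and 0.115, adjusted 0.236 and 0.575). Without wildtype replicate 2 and knock-out replicate 4 these were -0.81 and 0.47. In that list 4 of 9 genes were higher on every knock-out array, against 4.04% of all genes. Heyl with 4 neural crest genes gave r = 0.79 (rho = 0.76, exact permutation p = 0.024 and 0.0368, adjusted 0.236 and 0.368; r = 0.86 without wildtype replicate 1 and knock-out replicate 4). Hes1 gave r = 0.78 with 10 somite genes (rho = 0.62, exact permutation p = 0.0292 and 0.115, adjusted 0.236 and 0.575; r = 0.80 without knock-out replicates 1 and 2). With 13 neural genes it gave r = 0.73 (rho = 0.45, exact permutation p = 0.0352 and 0.267, adjusted 0.244 and 0.673; r = 0.46 without wildtype replicate 1 and knock-out replicate 2). Lists such as somite and members such as Lfng and Notch3 were apart by genotype, so pooled values hold that difference, and 4 arrays of a genotype are too few for a value within it.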
